A study of Mus musculus with 22 samples.

Results

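The comparison described here is that of megakaryocytes of 16N and above, called 16N-plus, from Srsf3 knockout mice with the same gate from Cre-negative control mice. Its members are all 9326 genes of the authors' deposited table for this contrast, of the 9326 that the 5 megakaryocyte tables hold. The knockouts were adult Pf4Cre-Srsf3fl/fl mice, in which the platelet factor 4 promoter drives Cre in the megakaryocyte lineage and Cre deletes floxed Srsf3. The controls were Cre-negative mice whose floxed alleles the labels do not describe, and all mice were C57BL/6. Bone marrow megakaryocytes were sorted on CD41 and DNA content, cells were pooled (52k ± 32k per sample over the series), and stranded total RNA was sequenced. Each of the 4 groups of genotype and gate (8N or 16N-plus) had 3 libraries. Another 10 libraries, of platelets, were sequenced on another platform: 3 from wild type, 3 from Cre-negative control and 4 from knockout mice. The platelet comparison was read as knockout against control. Only the knockouts carry the transgene, so loss of Srsf3 and presence of Cre cannot be told apart.

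Megakaryocytes are the bone marrow cells that make platelets. They copy their DNA without dividing, and while they do so they build an internal membrane system, load granules and assemble the tubulin and actin machinery from which proplatelets extend. A 16N-plus cell is therefore a late cell, which holds much of the mRNA that platelets later carry. SRSF3 is a small SR protein, an RNA-binding protein that acts in exon choice, mRNA export and 3′ end formation.

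Values are the authors' comparisons per gene, since the files used here hold none per library. A log2 fold change is given as knockout minus control. The deposited tables do not name the numerator. The direction was inferred from higher platelet genes and lower mitosis genes at higher ploidy, so those signs cannot count as evidence. Read the other way, every megakaryocyte sign below would turn. A gene was called at an edgeR adjusted p under 0.05 as deposited, and the standard error (SE) was computed from the fold change and its F. Whether libraries of 1 group stem from separate animals is not in the labels. The p-values rest on a spread between libraries that the authors' fit pools over genes, and this spread may be technical. In bulk RNA, fewer cells of a type and less RNA per cell cannot be told apart.

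All 10 megakaryocyte markers were measured, at mean log2 CPM (counts scaled to library size) over the 12 megakaryocyte libraries from 7.37 (Gp9) to 12.18 (Itga2b), against a median of 6.04 over all genes. Srsf3 itself, on chromosome 17 at 29032628 to 29043373 on the plus strand (GRCm38), was not called. The authors' deposited table put Srsf3 at a log2 fold change of 0.43 (SE 0.27; edgeR adjusted p = 0.556), in the direction opposite to a loss of its RNA. A value over the whole gene need not follow the deleted exons, so it does not check the labels.

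Most genes that changed in 16N-plus knockout cells fell, with the most negative values in Tubb1, Lpin2 and Mmp19. The authors' deposited table calls 327 genes (3.51% of those tested). Of all genes tested, 291 were lower (3.12%) and 36 higher (0.386%). The 36 higher genes had log2 fold changes between 0.66 and 1.28, while the lower genes reached -3.32 and had a median of -1.20. A change of at least 2-fold was found for 213 of the lower and 11 of the higher genes. A change of at least 4-fold was found for 27 of the lower genes and 0 of the higher ones. This excess of lower calls stood against a slight shift of the whole table the other way: the median gene was at 0.07, and 60.9% of all genes were above 0. With log2 fold changes centred on that median, 426 genes were called lower and 28 higher, and the share of higher genes among the calls went from 11.0% to 6.17%. The authors' fit pools spread over genes, and its F and p imply 339.5 denominator degrees of freedom. With 8, the number the 12 libraries and 4 groups give, 76 genes remained lower and 0 higher. F was kept as deposited there, so the spread was still pooled and this is not a test without pooling.

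**Figure D1:**
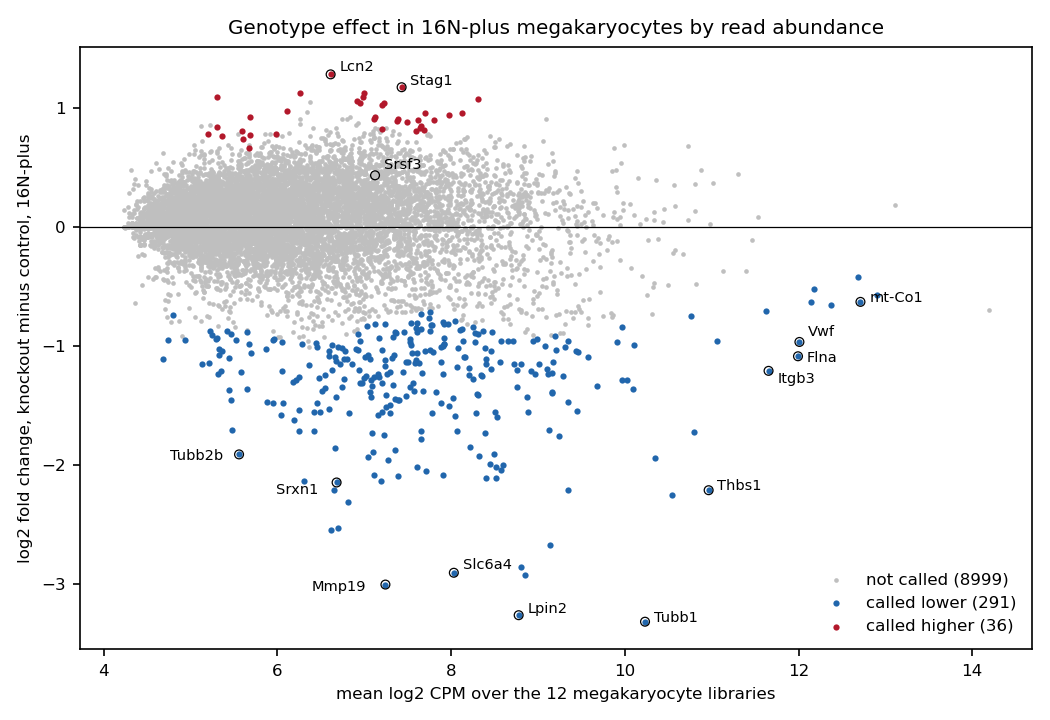
Log2 fold change of knockout against control in 16N-plus megakaryocytes (y axis) against the mean log2 CPM over 12 megakaryocyte libraries (x axis) per the authors' deposited table. Grey points are the genes not called, and coloured points are the 291 lower and 36 higher genes. The called lower genes lie mainly to the right, with 206 of 291 among the most abundant 25% of genes.

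The plot of effect against level shows that calls of both directions were most frequent among abundant genes. Of the most abundant 25% of genes, 8.83% were called lower, against 0.429% of the least abundant 25%. Called higher were 0.901% and 0.129% of the same groups, with 21 of the 36 higher genes among the most abundant. Called lower genes had a median mean log2 CPM of 7.56. The median log2 fold change of the called lower genes was -0.95 in the least abundant 25% and -1.21 in the most abundant.

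Tubb1, the tubulin beta isotype of megakaryocytes and platelets and the main tubulin of the platelet marginal band, had the most negative value of all called genes. It lies on chromosome 2 and its mean log2 CPM was 10.23. The authors' deposited table gave Tubb1 a log2 fold change of -3.32 (SE 0.26; edgeR adjusted p = 1.60e-27), which is 9.98-fold lower in the knockout. Other beta tubulins, Tubb2a at -2.93 (SE 0.30; edgeR adjusted p = 1.34e-16) and Tubb2b at -1.91 (SE 0.25; edgeR adjusted p = 1.47e-10), fell with it in the authors' deposited table. The ubiquitous Tubb5 was not called and stood at 0.13 (SE 0.24). These are close paralogs, and how reads shared between them were counted is not given in the sources used here. Of 30 tubulin and microtubule genes measured, 6 fell and 0 rose, with a median of -0.20. The other 3 that fell were Mast2, a microtubule-associated kinase, at -1.50 (SE 0.23), the kinesin Kif2a and the alpha tubulin Tuba4a. With 8 denominator degrees of freedom Tubb1, Tubb2a, Tubb2b and Mast2 remained. The motor subunit Dync1h1 was not called and stood at -0.11 (SE 0.24) per the authors' deposited table.

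The 250 bases before the RefSeq start of Tubb1 (chr2:174450345-174450594, plus strand, GRCm38.p6) are printed because Tubb1 changed most. The sequence of Srxn1 (chr2:152105274-152105523, plus strand), the antioxidant gene that fell most, is printed beside it. Capitals mark matches, on either strand, to TGANTCA, the core bound by AP-1 and NF-E2 factors, or to TGACNNNGC, the core of the antioxidant response element.
Tubb1: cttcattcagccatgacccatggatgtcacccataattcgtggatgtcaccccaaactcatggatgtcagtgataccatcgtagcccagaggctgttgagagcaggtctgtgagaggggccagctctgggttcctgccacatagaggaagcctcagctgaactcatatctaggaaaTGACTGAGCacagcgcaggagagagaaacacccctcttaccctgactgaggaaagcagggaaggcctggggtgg
Srxn1: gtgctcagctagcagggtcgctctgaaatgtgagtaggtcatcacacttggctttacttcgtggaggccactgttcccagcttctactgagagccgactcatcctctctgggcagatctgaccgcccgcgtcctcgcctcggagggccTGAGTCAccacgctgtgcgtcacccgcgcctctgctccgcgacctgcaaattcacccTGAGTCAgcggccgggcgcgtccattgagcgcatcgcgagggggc
Tubb1 held 1 match to TGACNNNGC and 0 to TGANTCA, and Srxn1 held 2 matches to TGANTCA and 0 to TGACNNNGC. The Srxn1 match nearer the start reads TGAGTCAgc, which differs from TGACNNNGC only in a G for the C before NNN. The 0 thus counts this exact pattern only and does not show that the element is absent. Neither window held a GATA match (AGATAA or TGATAA). Over all 27025 RefSeq promoter windows of this length, 10.1% held TGACNNNGC, 6.87% held TGANTCA and 17.0% held a GATA match. The Gclm window held 1 TGACNNNGC match and the Cat window held none of these motifs. A match describes letters only.

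Platelet surface receptors fell in part. Of 22 adhesion receptors and surface glycoproteins, 8 fell and 0 rose, with a median of -0.71. Itga6, the integrin alpha chain that binds laminin, was at -1.72 (SE 0.20; edgeR adjusted p = 4.99e-13) per the authors' deposited table. Gp6, the collagen receptor, was at -1.33 (SE 0.23) per the authors' deposited table, and Itgb3, the beta chain of the fibrinogen receptor, at -1.21 (SE 0.14). Its alpha chain Itga2b fell less, by 0.52 (SE 0.10) on the log2 scale in the authors' deposited table. Clec1b, Itga2, Mpig6b and Gp5 were the other members called lower. Itgb1 was not called at -0.77 (SE 0.28). Among 12 receptors for soluble agonists, 3 fell and 0 rose around a median of -0.02. They were both ADP receptors, P2ry12 at -1.71 (SE 0.33) and P2ry1 at -1.08 (SE 0.31), and the thrombin co-receptor F2rl2 at -0.82 (SE 0.24) per the authors' deposited table. The thrombin receptor F2r was not called, with 0.72 (SE 0.30) per the authors' deposited table. With 8 denominator degrees of freedom, 3 surface receptors and 0 agonist receptors remained lower.

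Granule cargo fell in part, too. Of 23 alpha granule genes, 11 fell and 0 rose, with a median of -0.85. The largest change was in Thbs1, the adhesive glycoprotein thrombospondin, at -2.21 (SE 0.20; edgeR adjusted p = 3.54e-21) per the authors' deposited table. The chemokine precursor Ppbp was at -1.34 (SE 0.27), Vwf, the carrier of factor VIII, at -0.97 (SE 0.12), and the kinase substrate Plek at -0.96 (SE 0.19) per the authors' deposited table. Plek is counted in this list although its product is not granule cargo. F5, F13a1, Ltbp1, Pdgfa, Mmrn1, Cxcl12 and Timp3 also fell. Serpine2 was not called at -0.41 (SE 0.29), and neither was Pf4, whose promoter drives the Cre, at -0.39 (edgeR adjusted p = 0.636) per the authors' deposited table. With 8 denominator degrees of freedom only Thbs1 and Vwf remained among these 23. Among 20 dense granule genes 3 fell (15.0%) around a median of -0.05. Slc6a4, the transporter that takes up serotonin, was at -2.91 (SE 0.25; edgeR adjusted p = 3.64e-23) per the authors' deposited table, and Lyst, the gene of Chediak-Higashi syndrome, at -1.39 (SE 0.29). Rab27b, which acts in granule docking, also fell (edgeR adjusted p = 0.0250 per the authors' deposited table). Of these 3, Slc6a4 remained with 8 denominator degrees of freedom. Of 21 exocytosis genes 2 fell (9.52%), the SNARE Stx11 at -1.71 (SE 0.22) and the Rab27 effector Sytl4 at -1.56 (SE 0.24) per the authors' deposited table. Napa, which acts in taking SNARE complexes apart, rose instead, by a log2 fold change of 1.06 (SE 0.28; edgeR adjusted p = 0.00922) per the authors' deposited table. Nbeal2, the alpha granule gene of grey platelet syndrome, lay just outside the threshold at -0.90 (edgeR adjusted p = 0.0506), and Tmod3, an actin-capping protein, just inside it at -0.72 (edgeR adjusted p = 0.0498), per the authors' deposited table.

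Signalling genes downstream of these receptors also fell in part. Of 44 measured, 11 fell and 0 rose, with a median of -0.38. Rasa3, which turns off the GTPase RAP1, was at -1.95 (SE 0.24; edgeR adjusted p = 1.77e-12) per the authors' deposited table. Gucy1b1, a subunit of the nitric oxide receptor, was at -1.24 (SE 0.23) and Gnaq, the G protein alpha subunit of several agonist receptors, at -1.14 (SE 0.23) per the authors' deposited table. Lyn, Arhgef12, Itpr2, Rap1b, Rasgrp2, Rap1a and Pde3a also fell, as did Tln1. The group thus held both activators of integrins (Rasgrp2, Rap1a, Rap1b and Tln1) and an inhibitor (Rasa3). With 8 denominator degrees of freedom Rasa3 and Tln1 remained lower among these 44, and the calls of Gucy1b1 and Gnaq were lost. Syk and Fermt3 were not called at -0.41 (SE 0.25) and -0.37 (SE 0.16) per the authors' deposited table. Alox12, the platelet 12-lipoxygenase, was the 1 called gene of 10 in eicosanoid synthesis, at -2.68 (SE 0.30; edgeR adjusted p = 1.43e-14) per the authors' deposited table. Ptgs1, which starts thromboxane synthesis, was not called at -0.79 (SE 0.27).

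Some actin and membrane genes fell as well. Of 61 genes of actin, myosin and focal adhesion, 12 fell and 0 rose, with a median of -0.30. Myl9, a regulatory light chain of non-muscle myosin, was at -2.09 (SE 0.25; edgeR adjusted p = 7.47e-13) per the authors' deposited table. Parvb, a partner of integrin-linked kinase, was at -1.47 (SE 0.28) per the authors' deposited table. The filamin Flna was at -1.09 (SE 0.11) and talin, Tln1, at -0.66 (SE 0.10) per the authors' deposited table. Myh9, Pdlim7, Pdlim1, Actb, Gsn, Tpm1, Tpm4 and Tpm2 completed the 12. Flna, Myl9 and Tln1 remained with 8 denominator degrees of freedom, and 5 of the 12 fell by at least 2-fold. The formin Diaph1 was not called at -0.23 (SE 0.22). Of 38 membrane and phosphoinositide genes 7 fell (18.4%) and 0 rose. Among the 7 were the phosphatase Inpp5d at -1.11 (SE 0.28), the membrane skeleton gene Epb41 at -1.10 (SE 0.27), and 2 genes of membrane curvature, Fnbp1 at -0.96 (SE 0.26) and Pacsin2 at -0.88 (SE 0.23), per the authors' deposited table. None of the 7 remained with 8 denominator degrees of freedom. The tetraspanin Tspan9 fell, at -2.09 (SE 0.22), as 1 of 16 tetraspanin and adhesion genes, and Cd9 was not called at -0.61 (SE 0.27), per the authors' deposited table. Mmp19, a secreted matrix metalloproteinase, was at -3.01 (SE 0.24; edgeR adjusted p = 6.05e-27) per the authors' deposited table. Of 19 matrix proteases and inhibitors, Adam9 and Timp3 also fell, and Mmp9 rose.

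**Figure D2:**
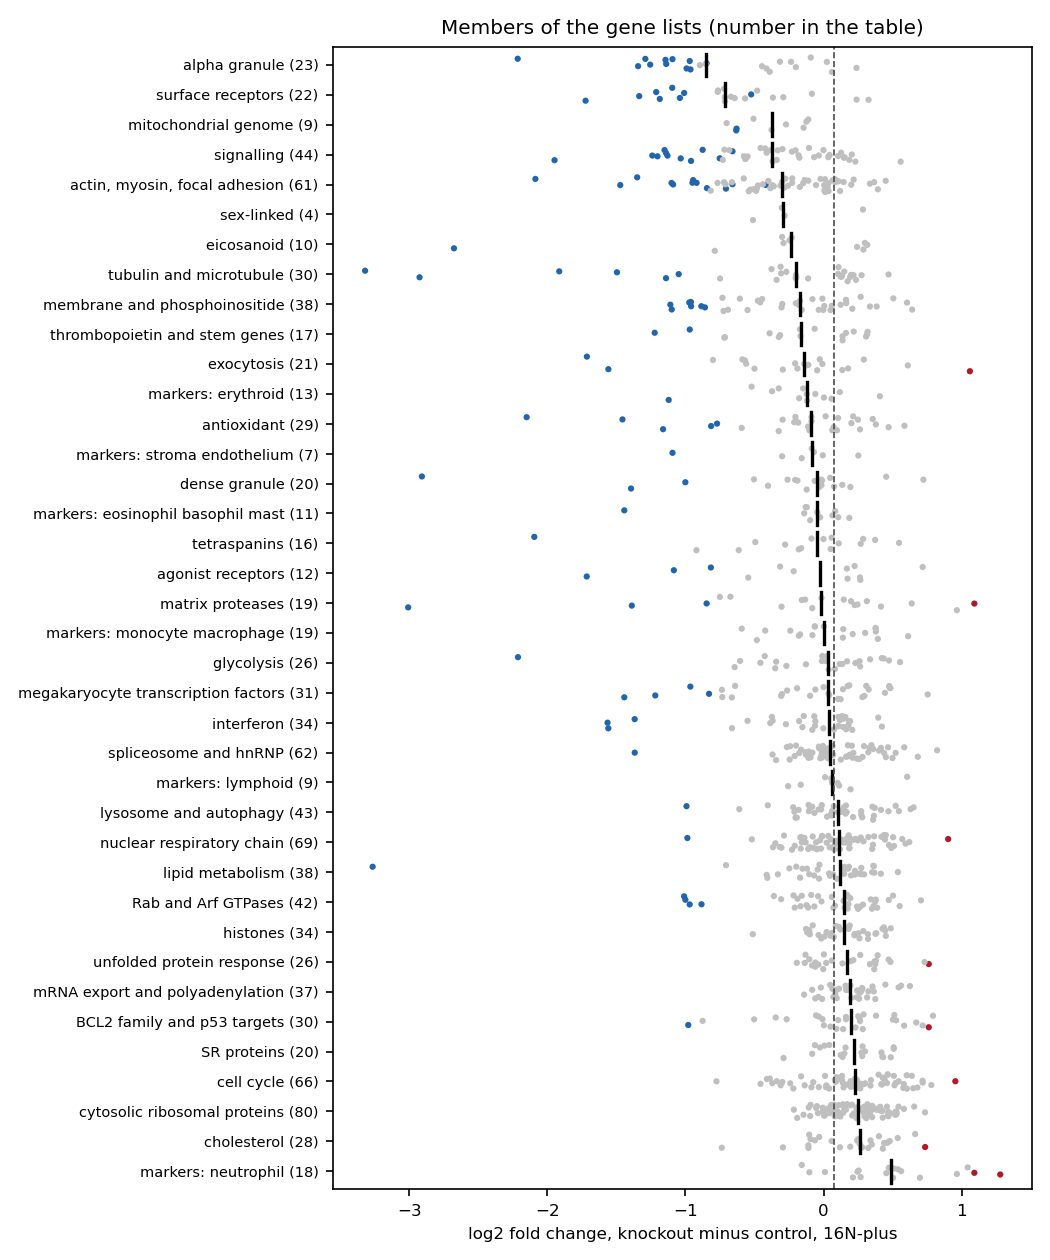
Log2 fold change of knockout against control at 16N-plus (x axis) of every measured member of each gene list (y axis, number measured in brackets), per the authors' deposited table. Blue points were called lower, red higher and grey not called; black bars are list medians and the dashed line is the median of all genes, 0.07. The alpha granule and surface receptor lists have the most negative medians, -0.85 and -0.71, and the neutrophil markers the most positive, 0.49.

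The plot of list members sets single genes against their list: in several lists a few members lie far below a median near 0. The antioxidant defence genes were such a case. Of 29 measured 5 fell (17.2%, against 3.12% of all genes) and 0 rose, while the list's median was -0.09. They were Srxn1, the sulfiredoxin that repairs peroxiredoxins, at -2.15 (SE 0.30; edgeR adjusted p = 1.10e-09), and both subunits of the enzyme that limits glutathione synthesis, Gclm at -1.46 (SE 0.23) and Gclc at -1.16 (SE 0.32), per the authors' deposited table. Catalase, Cat, at -0.77 (SE 0.23), and the peroxiredoxin Prdx6 also fell per the authors' deposited table. Sod1 was not called at 0.11 (SE 0.27). With 8 denominator degrees of freedom 2 of the 5 remained lower.

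The 5 metabolic lists had 1 or 2 called genes each, beside 3.51% of all genes called. Lpin2, a phosphatidate phosphatase that makes diacylglycerol, had the most negative value after Tubb1, at -3.27 (SE 0.30; edgeR adjusted p = 4.33e-20) per the authors' deposited table. It was the 1 called gene of 38 in lipid metabolism, whose median was 0.12. Slc2a3, the glucose transporter GLUT3, was at -2.21 (SE 0.29; edgeR adjusted p = 7.77e-11) per the authors' deposited table and was the 1 called gene of 26 in glycolysis, while Pkm was not called at -0.34 (SE 0.27). Insig1, which restrains cholesterol synthesis, was the 1 called gene of 28 in that pathway and rose, with 0.74 (SE 0.22; edgeR adjusted p = 0.0286) per the authors' deposited table. Of 69 nuclear genes of the respiratory chain 1 fell and 1 rose, both ATP synthase subunits, Atp5e at -0.99 (SE 0.29) and Atp5h at 0.90 (SE 0.27) per the authors' deposited table. Of 9 genes of the mitochondrial genome 2 fell, mt-Rnr1 at -0.63 (SE 0.10) and mt-Co1 at -0.63 (SE 0.12) per the authors' deposited table. All 9 were below 0, with a median of -0.38. In 8N cells the median of these 9 was 0.46, with 0 called lower and 1 higher. The calls of Insig1, Atp5e, Atp5h and mt-Co1 were lost with 8 denominator degrees of freedom.

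Among 31 transcription factors of the lineage 4 fell (12.9%) and 0 rose, against 3.12% of all genes called lower. The list's median was 0.04, or -0.04 once centred on the median gene. Gata2, a factor of early megakaryocytes and progenitors, was at -1.44 (SE 0.25; edgeR adjusted p = 1.34e-06) and Lyl1, a relative of TAL1, at -1.22 (SE 0.23) per the authors' deposited table. Nfe2, the NF-E2 subunit that Tubb1 transcription needs in mice, was at -0.96 (SE 0.29; edgeR adjusted p = 0.0278) and Stat5b at -0.83 (SE 0.23) per the authors' deposited table. Gata1 was not called at -0.66 (edgeR adjusted p = 0.107), nor was its cofactor Zfpm1 at -0.10 (SE 0.27), per the authors' deposited table. Sh2b3, an adaptor that dampens thrombopoietin signalling, was at -1.22 (SE 0.22) per the authors' deposited table and with Vwf made 2 of 17 called genes of the thrombopoietin and stem cell list. Of 34 interferon-induced genes measured, 3 fell (8.82%) around a median of 0.04 (-0.04 centred). They were Igtp at -1.56 (SE 0.23), Ifit2 at -1.56 (SE 0.33) and Ifit1 at -1.37 (SE 0.27) per the authors' deposited table. With 8 denominator degrees of freedom Gata2 remained among the 31 transcription factors and Igtp among the interferon genes.

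Of the 25 most negative called genes, 14 were in no list. They included Otud7b, a deubiquitinase, at -2.86 (SE 0.30), Birc2, the apoptosis inhibitor cIAP1, at -2.05 (SE 0.22), and 2 further E3 ubiquitin ligases, Rnf144b at -2.21 (SE 0.30) and Mkrn1 at -2.05 (SE 0.29), per the authors' deposited table. Prokr1, a prokineticin receptor, was at -2.54 (SE 0.31), and the guidance genes Draxin and Plxna4 at -2.32 (SE 0.29) and -2.12 (SE 0.29) per the authors' deposited table. The imprinted gene Mest was at -2.55 (SE 0.31), the leucine zipper gene Tsc22d1 at -2.26 (SE 0.22) and the kinase Wnk4 at -2.14 (SE 0.31) per the authors' deposited table. Neb, the giant filament protein nebulin of muscle, was at -2.14 (SE 0.24), Mmd at -2.11 (SE 0.28), the kinase Dapk1 at -2.09 (SE 0.23) and the integrin chain Itgb5 at -2.02 (SE 0.22) per the authors' deposited table. All 25 remained called with 8 denominator degrees of freedom, and the least certain of them had an edgeR adjusted p of 8.51e-09.

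Calls were few in the RNA machinery to which SRSF3 belongs, as they were over all genes (3.51% called). Such small counts do not set this machinery apart from other genes. None of 20 SR proteins and none of 37 genes of mRNA export and polyadenylation was called by edgeR, where 1 and 2 had an unadjusted p under 0.05, and their medians were 0.22 and 0.19. Over all genes, 1123 of 9326 had an unadjusted p under 0.05 by edgeR. Of 62 spliceosome and hnRNP genes, 1 was called: Mbnl1, the muscleblind splicing factor, at -1.37 (SE 0.25; edgeR adjusted p = 8.80e-06) per the authors' deposited table, a call lost with 8 denominator degrees of freedom. Values per gene hold no information on exon use. None of 80 cytosolic ribosomal protein genes (7 at an unadjusted p under 0.05 by edgeR) and none of 34 histone genes (2 by edgeR) was called, with medians of 0.25 and 0.15. Of the 80 ribosomal protein genes 69 were above 0, against 60.9% of all genes. In 8N cells their median was 0.54, and 21 of the 28 genes called higher there were among them. Cenpf, a kinetochore protein, rose as the 1 called gene of 66 in the cell cycle, with 0.95 (SE 0.27; edgeR adjusted p = 0.0168) per the authors' deposited table. In all, 14 of these 66 had an unadjusted p under 0.05, and the marker of cycling Mki67 stood at 0.68 (SE 0.23; edgeR adjusted p = 0.0756) per the authors' deposited table. Sesn2, a stress-induced sestrin, rose by 0.76 (SE 0.23) per the authors' deposited table. It was the 1 gene called higher of 26 in the unfolded protein response list and of 30 in the apoptosis and p53 list. Ctsz was the 1 called gene of 43 in lysosome and autophagy, at -0.99 (SE 0.22) per the authors' deposited table. Of 42 Rab and Arf GTPases, with a median mean log2 CPM of 7.01, 4 fell (9.52%) per the authors' deposited table, Rab27b, Arl4a, Arl5a and Rab8b. By level, 8.83% of the most abundant 25% of all genes were called lower, and 2.23% of the next 25%. The list's median level lies near the border of these groups, 6.95, so neither share alone is a matched one. None of the 5 calls of Ctsz and these 4 GTPases remained with a Holm adjustment or 8 denominator degrees of freedom.

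**Figure D3:**
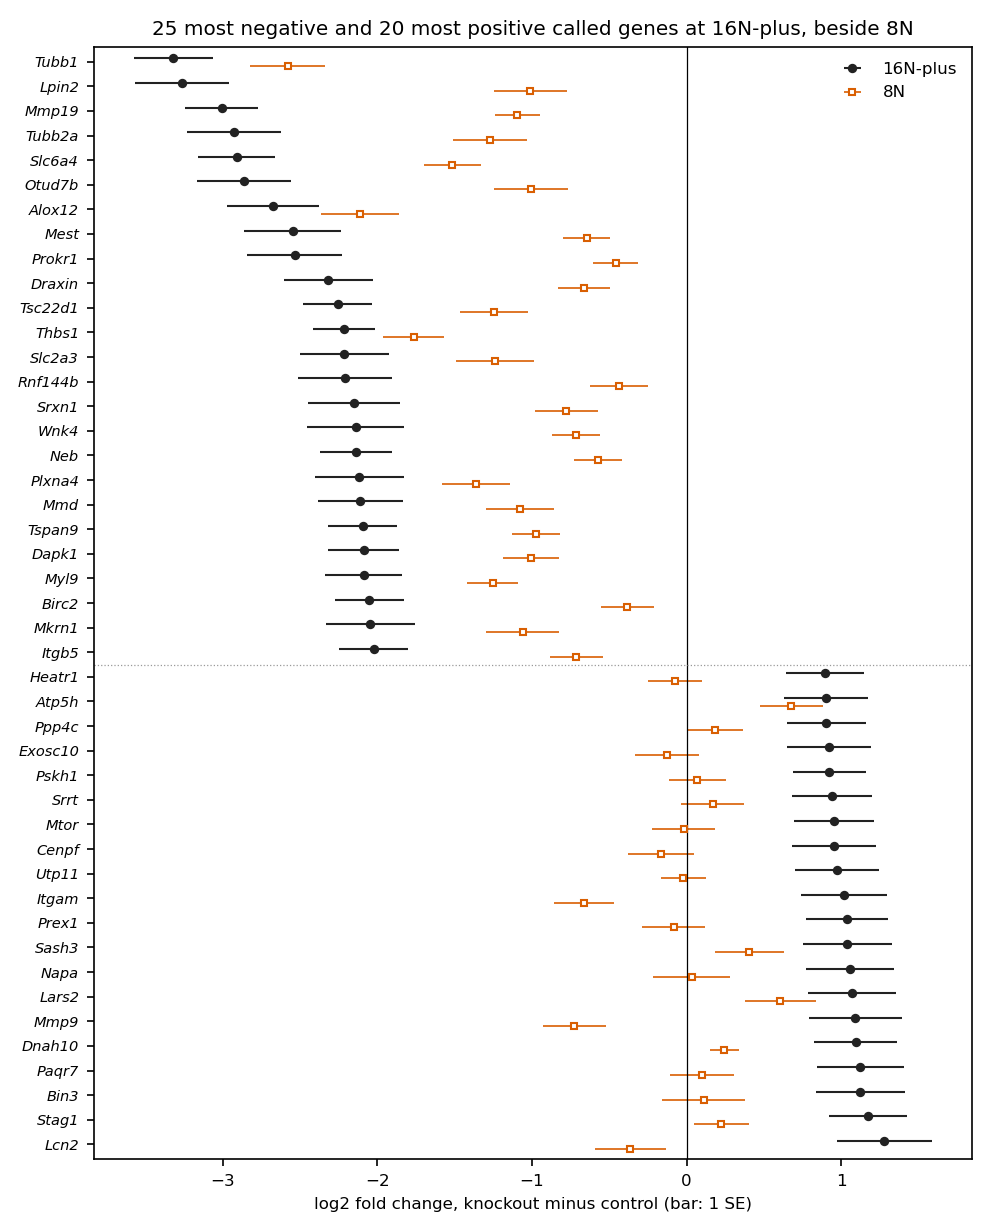
Log2 fold change of knockout against control with its SE (x axis) for the 25 most negative and 20 most positive called genes at 16N-plus (y axis), beside the value of the same gene in 8N cells, from the authors' deposited tables. The genes were chosen on the 16N-plus values. The 8N values of the 25 lower genes lie between -2.58 and -0.38 and those of the higher genes lie on both sides of 0.

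The plot of the most changed genes shows the smaller size of the increases. Of the 36 genes that rose, 29 were in no list. Utp11 at 0.97 (SE 0.27) and Heatr1 at 0.90 (SE 0.25) act in ribosome assembly, Exosc10 at 0.92 (SE 0.27) is a nuclear exosome nuclease and Srrt at 0.94 (SE 0.26) a partner of the cap-binding complex, per the authors' deposited table. Stag1, a cohesin subunit, was at 1.17 (SE 0.25; edgeR adjusted p = 0.000356), Mtor, the kinase that couples growth to nutrients, at 0.95 (SE 0.26), and Lars2, the mitochondrial leucyl-tRNA synthetase, at 1.07 (SE 0.29) per the authors' deposited table. The progestin receptor Paqr7 and the BAR domain gene Bin3 were both at 1.12 (SE 0.28 each), the dynein chain Dnah10 at 1.09 (SE 0.27), and the Rac activator Prex1 and the lymphoid adaptor Sash3 both at 1.04 (SE 0.27 and 0.29) per the authors' deposited table. None of the 36 remained with a Holm adjustment or with 8 denominator degrees of freedom.

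Lcn2, an iron-scavenging protein of neutrophil granules, had the highest value of all called genes, at 1.28 (SE 0.31; edgeR adjusted p = 0.00210) per the authors' deposited table. Mmp9, the gelatinase of neutrophil granules, was at 1.09 (SE 0.30), and Itgam, the alpha chain of the myeloid integrin CD11b, at 1.02 (SE 0.28) per the authors' deposited table. Lcn2 and Mmp9 are the 2 called members of the neutrophil marker list, which does not hold Itgam. Of its 20 genes 18 were measured, 16 of them were above 0 and the median was 0.49. Without the 2 called members, 14 of 16 were above 0 and the median was 0.46. In 8N cells the same list had a median of -0.36, with 5 genes called lower and 0 higher. The part of other cells in the higher genes was not tested. Of 19 monocyte and macrophage markers measured 0 were called by edgeR (4 at an unadjusted p under 0.05), with a median of 0.00, and of 9 lymphoid markers measured out of 27, 0 were called (1 at an unadjusted p under 0.05). Over all genes, 1123 of 9326 had an unadjusted p under 0.05 by edgeR. The other marker lists had 1 called gene each, and each fell: Gata2 of 11 eosinophil, basophil and mast cell markers, Slc4a1 of 13 erythroid markers and Cxcl12 of 7 markers of stroma and endothelium. None of 4 sex-linked genes was called by edgeR (0 at an unadjusted p under 0.05). Slc4a1, the anion exchanger of red cells, was at -1.12 (SE 0.24) per the authors' deposited table.

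The genotype effect was larger at 16N-plus than at 8N for most of the genes called here, a comparison that the choice of genes at 16N-plus favours. In 8N cells, from other libraries, 134 genes were called (1.44% of those tested), 106 of them lower (1.14%) and 28 higher (0.3%). Of the 291 genes lower at 16N-plus, 71 were also lower at 8N, which is 24.4% of the 16N-plus list and 67.0% of the 8N list. None of the higher genes was shared. At 8N, 276 of the 291 (94.8%) were below 0, against 48.3% of all genes, and their median there was -0.43. The 36 higher genes had a median of 0.05 at 8N, with 15 of them (41.7%) below 0.

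**Figure D4:**
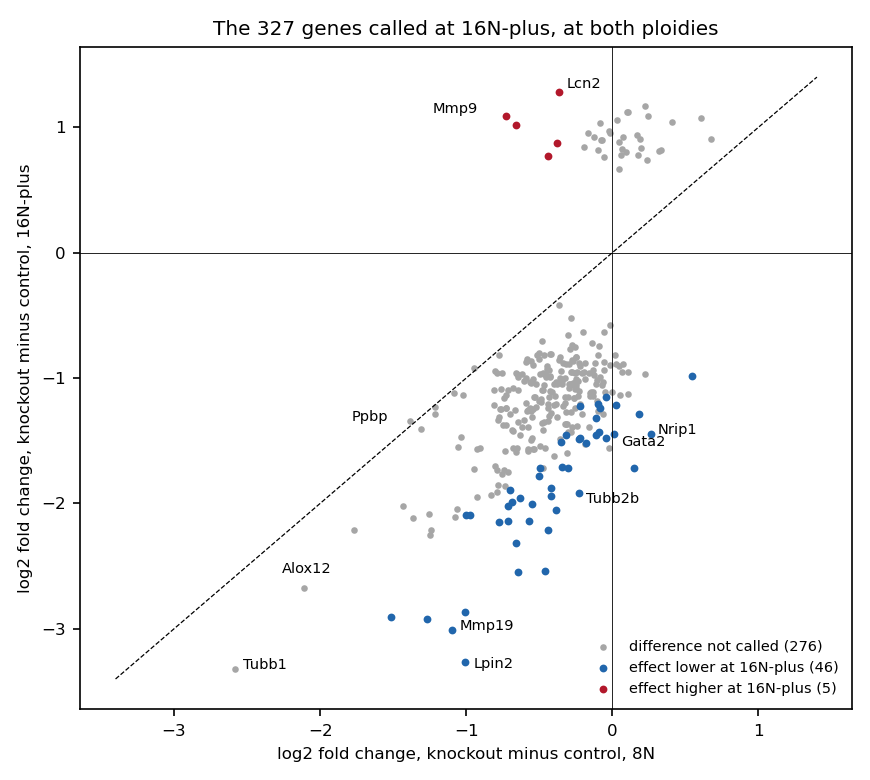
Log2 fold change of knockout against control at 8N (x axis) and at 16N-plus (y axis), from the authors' deposited tables, for the 327 genes called at 16N-plus. The dashed line marks equal values; blue and red points are the 46 and 5 genes whose effect was called lower or higher at 16N-plus than at 8N, and grey points the other 276. Of the 291 lower genes, 276 lie left of 0 and 289 lie farther from 0 at 16N-plus than at 8N.

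The plot of the gates against each other is by itself no test of a difference. The difference of the effects, 16N-plus minus 8N, was tested with the summed squared SEs and a normal approximation over 9305 genes, and 68 were called (0.731%), 52 lower (0.559%) and 16 higher (0.172%). With a t distribution of 8 degrees of freedom 0 were called in either direction. Mmp19 had -3.01 at 16N-plus against -1.09 at 8N in the authors' deposited tables, a difference of -1.91 (adjusted p = 2.35e-08). Tubb2b had -1.91 against -0.23 per the authors' deposited tables, a difference of -1.68 (adjusted p = 6.56e-07). Lpin2 differed by -2.26 (adjusted p = 5.47e-06), Birc2 by -1.67 (adjusted p = 4.68e-06) and Prokr1 by -2.08 (adjusted p = 2.15e-06). Gata2 and the nuclear receptor corepressor Nrip1 were at 0.01 and 0.26 at 8N against -1.44 and -1.45 at 16N-plus in the authors' deposited tables (differences of -1.45 and -1.71). For Tubb1 the values were -3.32 and -2.58 and for Thbs1 -2.21 and -1.77 per the authors' deposited tables, differences of -0.74 and -0.45 that were not called (adjusted p = 0.563 and 0.777). The differences called higher included the lysozyme Lyz1, with 0.70 at 16N-plus and -1.81 at 8N in the authors' deposited tables, a difference of 2.51 (adjusted p = 4.86e-12). They also included the immunoglobulin genes Ighm and Igkc, at differences of 2.12 and 1.77, and the lectin Itln1, at 1.68, along with Mmp9 (1.82), Itgam (1.68) and Lcn2 (1.64). Of these, Lyz1, Ighm, Igkc and Itln1 were called lower at 8N and not called at 16N-plus. The 9 lymphoid markers, which include Ighm and Igkc, did not share a direction: 2 were called lower and 2 higher at 8N, and the difference was called higher in 2 and lower in 1.

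**Figure D5:**
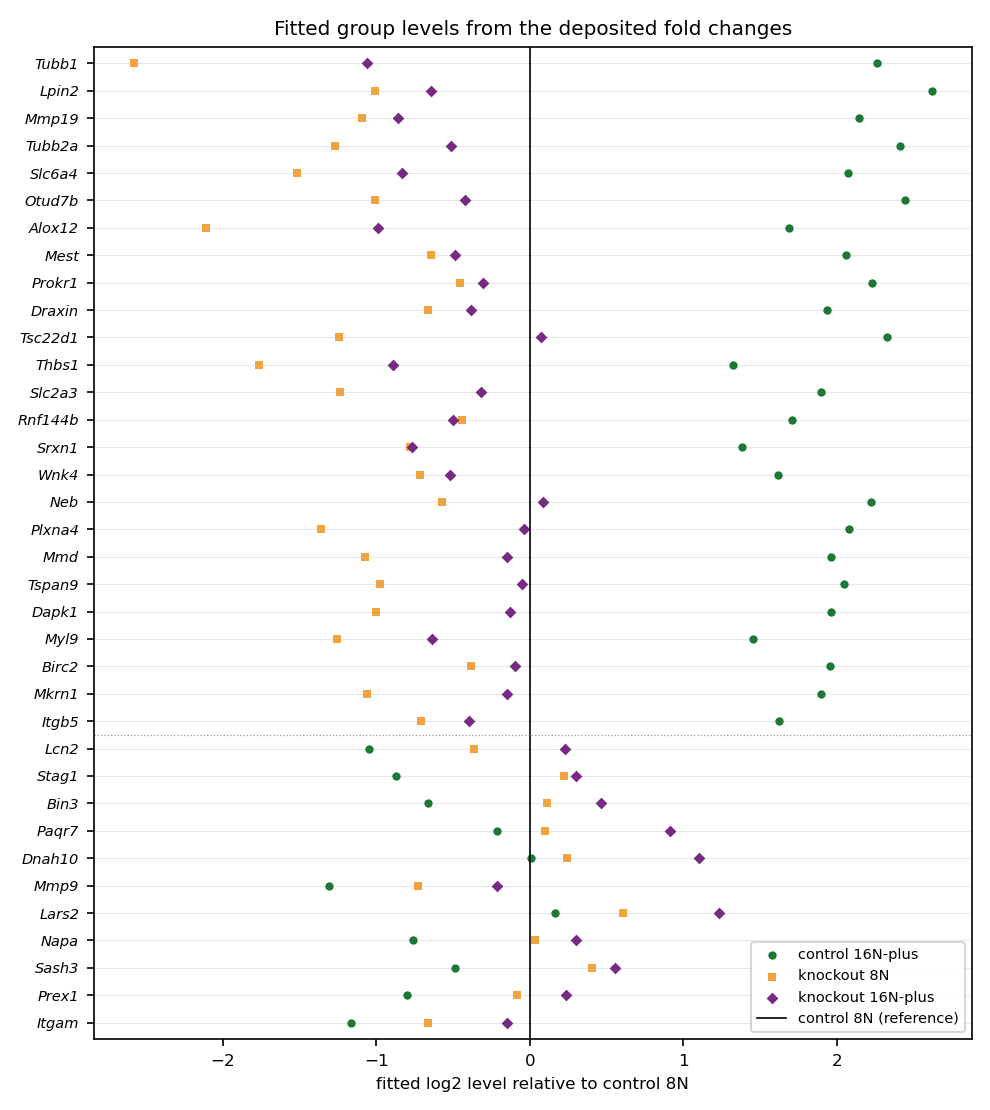
Fitted log2 level relative to the control 8N group (x axis, vertical line at 0) of the 25 most negative called genes and, under the dotted line, of the most positive ones (y axis), from the authors' deposited tables. Circles are control 16N-plus, squares knockout 8N and diamonds knockout 16N-plus; no error is drawn. Tubb1 reaches 2.26 in the control and -1.06 in the knockout at 16N-plus.

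The plot of fitted levels by group sets the 4 groups on 1 scale, log2 relative to the control 8N group, and its values share libraries with the genotype comparison. Tubb1 was at 2.26 in control 16N-plus cells and at -1.06 in knockout 16N-plus cells in the levels from the authors' deposited tables. Slc6a4 was at 2.07 and -0.83 and Lpin2 at 2.62 and -0.65 on the same scale. Over the 25 most negative genes the control 16N-plus level ran from 1.32 to 2.62 and the knockout 16N-plus level from -1.06 to 0.09, and 23 of the 25 knockout levels were below 0. That was so for 60.8% of the 291 lower genes and 55.0% of all genes. The choice of genes on knockout minus control at 16N-plus itself favours levels that lie apart in this way. The 36 higher genes ran from -1.31 to 0.16 in control and from -0.27 to 1.23 in knockout 16N-plus cells. Mtor, for example, was at -1.23 in control and -0.27 in knockout 16N-plus cells.

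Platelets, measured in other libraries by amplicon sequencing, are set beside these values, but the sign of the platelet table was itself chosen by its likeness to the megakaryocyte tables. Among the 8163 genes tested in both, 27.8% were lower and 34.4% higher in knockout platelets in the authors' deposited table (DESeq2 adjusted p). Of the 291 genes lower at 16N-plus, 268 were tested in platelets, where 228 were lower, 11 higher and 29 not called. Of the 36 higher genes, 32 were tested, where 2 were lower and 18 higher. Tubb1 was at -5.59 (SE 0.23), Mmp19 at -7.92 (SE 0.34) and Slc6a4 at -1.79 (SE 0.16) in platelets in the authors' deposited table. Among the genes with opposite signs, Neb was at 1.11 (SE 0.34), Lyl1 at 0.60 (SE 0.20), Tln1 at 0.44 (SE 0.10), Epb41 at 3.17 (SE 0.64) and Slc4a1 at 6.49 (SE 0.91) in platelets in the authors' deposited table. The last 2 are major genes of the red cell membrane.

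Features of the called lower genes are given without a test, since genes are not replicates. Their median span in the genome was 50.0 kb against 25.2 kb for all genes, and their longest transcripts had a median of 4230 bases against 3307.5. They had a median of 9 exons against 10, and 11 of them (3.78%) had a single exon, against 3.04% of all genes. The transcript GC content was 49.4% against 49.8%. TCATC, which holds the CNNC pattern known for SRSF3 binding, occurred at 1.02 per kb against 1.01. The called genes were also more abundant, and the part of level in these lengths was not tested. Of the 291, 281 were protein coding and 5 were lincRNAs. Leaving aside chromosomes M and Y with 10 and 3 genes, the share of genes called was highest on chromosome 13 (7.00%) and lowest on chromosome 14 (1.24%). Within 5 Mb of Srsf3, 0 of 146 genes were called, and within 5 Mb of Pf4, 1 of 27, Ppbp, was called and lower. Over all genes 3.51% were called, and neither window was tested against that share.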

How the data were processed

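Megakaryocyte RNA was measured in 12 libraries (3 for each genotype and ploidy gate) and platelet RNA in 10. The submitters' processing notes list edgeR, DESeq2, STAR, Trimmomatic, featureCounts, Subread and Picard and give mm10 as the build, with no version or role of a tool. Per the file headers, the deposited megakaryocyte tables hold edgeR quasi-likelihood output: log2 fold change, mean log2 CPM, F score, p-value and adjusted p for 9326 genes. Per the file headers, the deposited platelet table holds DESeq2 output: a log2 fold change with its SE, a mean signal (count over size factors), a test score and p-values. A prior filter on low levels is apparent, since the lowest mean log2 CPM was 4.23. Depth per library is unknown.

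From these, the SE was taken as the absolute log2 fold change divided by the square root of F (median 0.26 over 5349 genes with F above 0.5). The genotype tables differ by the same amount as the ploidy tables to 1.01e-14, which ties their signs. The difference of effects between the gates was tested with a two-sided normal approximation and Benjamini-Hochberg adjustment; the labels do not tie the gates to mice, and both were taken as independent. Fitted levels per group add these fold changes. Scripts used Python 3.11.15, NumPy 2.4.6, pandas 2.3.3 and SciPy 1.17.1 and were tested on simulated data. Positions are from GENCODE (GRCm38), for 9300 genes, and promoters from RefSeq (GRCm38.p6).

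The members, gene lists and alternatives were chosen with earlier results of these data known. Named genes were the 25 most negative and 20 most positive called genes, up to 4 called members with the smallest adjusted p and 2 uncalled members with the highest mean level from each list, called markers, Srsf3, 3 genes on each side of the threshold and the 12 genes with the smallest adjusted p for the difference between gates. Other genes named to complete a count, Pf4, Gata1 and Gp9 were chosen after their values were seen. Alternatives were other thresholds, a Holm adjustment, a 2-fold minimum, centring, 8 degrees of freedom and a higher level filter. The setting of 8 degrees of freedom kept the deposited F and the SE from it, and so the pooled spread. Results for some genes are not reported here.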

Additional observations from a re-analysis of the deposited data

Results flagged for a closer look

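Among the genes named above, 30 had a knockout effect that differed between the 16N-plus and 8N gates by the test of that difference (normal approximation, adjusted p under 0.05 over 9305 genes). With a t distribution of 8 degrees of freedom, 0 genes of the table passed. Differences are given as the log2 fold change at 16N-plus minus that at 8N. The 25 most negative genes were chosen on the 16N-plus value, which favours a negative difference.

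The difference was lower in 23 of the genes. It was -2.26 for Lpin2, -2.08 for Prokr1, -1.91 for Mmp19, -1.90 for Mest, -1.86 for Otud7b, -1.77 for Rnf144b and -1.71 for Nrip1. The tubulins Tubb2b and Tubb2a had -1.68 and -1.65. It was -1.67 for Birc2, -1.66 for Draxin, -1.57 for Neb, -1.53 for Atp5e and -1.45 for Gata2. Smaller values were found for Wnk4 (-1.42), Slc6a4 (-1.39), Srxn1 (-1.37), Itgb5 (-1.31), Lyl1 (-1.25), Stx11 (-1.22), Tspan9 (-1.12), Dapk1 (-1.08) and Sh2b3 (-0.999).

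The difference was higher in 7 genes: Lyz1 (2.51), Ighm (2.12), Mmp9 (1.82), Igkc (1.77), Itgam (1.68), Itln1 (1.68) and Lcn2 (1.64). Lyz1, Mmp9 and Lcn2 belong to the neutrophil marker list, which had a median log2 fold change of 0.49 at 16N-plus and -0.36 at 8N. The part of other cells in these differences was not tested.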

How the results depend on the processing

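Of the 327 genes called at 16N-plus, a Holm adjustment left 142 and 8 denominator degrees of freedom left 76, lower in every case. The higher genes (36) depended most on the setting: 9 passed an adjusted p of 0.01, 80 passed 0.10, 11 had at least a 2-fold change, and 0 passed with a Holm adjustment or 8 degrees of freedom. Lower counts stayed within 1.5 times of 291 under the other alternatives, with 426 when centred. For the difference between gates, 32 of 52 lower genes passed 0.01, and 0 lower and 0 higher genes passed with a t distribution of 8 degrees of freedom. Of 96 called genes named, 55 lost their call with 8 degrees of freedom, 39 with a Holm adjustment, 27 with a 2-fold minimum, 25 at an adjusted p of 0.01 and 2 when centred. No paired analysis was possible because the files used here hold no values per library, and leaving out each replicate was not run for the same reason.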
